A study of Rattus norvegicus with 15 samples.

Results

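The genes described here form the nuclear arm of thyroid hormone action. They are *Thra* and *Thrb*, which encode the thyroid hormone receptors, *Rxra*, *Rxrb* and *Rxrg*, which encode the retinoid X receptors, the corepressor gene *Ncor1*, and the coactivator genes *Ncoa1*, *Med1* and *Ep300*. They were chosen by name, and every probe set was taken whose array annotation gives a single symbol from these 9 genes. That yielded 22 probe sets of the 31099 on the array, all of them tested, namely 3 for *Thra*, 4 for *Thrb*, 1 each for *Rxra* and *Rxrb*, 2 for *Rxrg*, 3 each for *Ncor1*, *Ncoa1* and *Med1*, and 2 for *Ep300*. Of the 22, 15 had a mean above the median of all probe sets. Each probe set, a group of short oligonucleotides that together measure a transcript, was kept separate.

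The retinas came from adult male Long-Evans rats that carried no mutation and had spent the night in darkness. RNA was hybridised to 15 Affymetrix rat arrays, 3 replicas in each of 5 conditions. In 3 ZT light and 6 ZT light the rats stood in light of 1000 lux for 3 and 6 hours and were taken at 10 am and 1 pm. In 0 ZT dark, 3 ZT dark and 6 ZT dark they stayed in darkness until 7 am, 10 am and 1 pm (ZT counts hours from the usual onset of light). For 6 ZT light the titles name 6 hours of light but the source and treatment labels name 3, and the titles were followed. The methods of the array experiment do not say how many animals gave the RNA of an array, and the labels do not say what a replica is. The p-values below rest on the spread that remains among the 15 arrays once condition and replica number are taken out. It is pooled over the 5 conditions, and part or all of it may thus be technical. Whole retina was measured, so that fewer cells of a type and less RNA per cell cannot be told apart.

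Thyroid hormone receptors sit on DNA, mostly as heterodimers with a retinoid X receptor, and are ligand-dependent transcription factors. Without triiodothyronine (T3) they hold corepressors such as NCOR1, which bring in histone deacetylases. With T3 they exchange these for coactivators, among them NCOA1 (also called SRC-1), the acetyltransferase p300 encoded by *Ep300*, and MED1. The last is a subunit of Mediator, the complex that contacts RNA polymerase II. In the retina of rodents, the TRβ2 isoform of *Thrb* is known for its part in setting the opsin that a cone makes, and *Rxrg* is expressed in cones. The comparisons ask whether the transcripts of this machinery differed between light and darkness or with the hour.

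The deposited values were log2 units after the Robust Multi-array Average, in which 1 unit is a doubling, and the number of arrays limits their precision. Values of different probe sets are not on a common scale, since oligonucleotides differ in how strongly they bind, so a place above or below the median of all probe sets describes the signal and not the amount of RNA. Replica numbers differed in their general level, with array medians of 8.28 to 8.32 for replica 1, 8.58 to 8.68 for replica 2 and 8.75 to 8.81 for replica 3, and comparisons were therefore made within a replica number. Exactly equal values recurred between arrays of a number: 18.8%, 13.1% and 14.0% of all probe sets had a value shared by 3 or more of the 5 arrays of replicas 1, 2 and 3. So did 8 of the 66 combinations of a probe set described here with a replica number, from 7 of the 22 probe sets. RNA quality was read from the *Actb* control, as its 3' minus its 5' signal. This was largest in 3 ZT light replica 2 (2.40) and 0 ZT dark replica 1 (2.10), and lay between 0.708 and 1.37 elsewhere. The 5 rod genes measured averaged 14.73 to 15.39 log2 units, among the bright signals of the array. Markers of lens and pigment epithelium had signal too. The mean of 9 of 9 lens genes ran from 8.70 to 11.7 in 6 ZT light and from 11.7 to 12.6 in 6 ZT dark, and that of 5 of 6 pigment epithelium genes from 12.0 to 13.0 in 6 ZT light and from 11.1 to 12.1 in 6 ZT dark. Their part in the light comparison at 6 ZT was not tested.

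None of the 22 probe sets passed an adjusted p of 0.05 in any comparison. Changes were small: over the 6 comparisons the fitted log2 fold changes ran from −0.29 to 0.49. The lowest adjusted p was 0.365, for *Ncor1* 1398976_at in 6 ZT light against 0 ZT dark. At an unadjusted p under 0.05, 2 probe sets of *Ncor1* and 2 of *Thrb* were higher in that comparison. Against the darkness of the same hour, fold changes ran from −0.18 to 0.18 at 3 ZT and from −0.27 to 0.31 at 6 ZT, and the lowest adjusted p-values of limma were 0.895 and 0.590.

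Few calls were made on the whole array. The limma model held condition and replica number, used all 15 arrays, and adjusted p-values over 31042 probe sets by Benjamini-Hochberg. The share called at an adjusted p under 0.05 was 0.00322% (1 probe set) for 3 ZT light against 3 ZT dark and 0.00322% (1) for 3 ZT light against 0 ZT dark. It was 0% for 6 ZT light against 6 ZT dark, 6 ZT light against 0 ZT dark, 3 ZT dark against 0 ZT dark, 6 ZT dark against 0 ZT dark, the difference between the light effects at 6 and 3 ZT, and any difference among the 5 conditions. At an unadjusted p under 0.05, 0 of the 22 probe sets passed for 3 ZT light against 3 ZT dark (4.59% of all probe sets) and 0 for 6 ZT light against 6 ZT dark (8.53%). Against 0 ZT dark the count was 1 for 3 ZT light (7.68%) and 4 for 6 ZT light (6.18%). In the remaining comparisons 0 passed for 3 ZT dark against 0 ZT dark (1.25%), 2 for 6 ZT dark against 0 ZT dark (8.73%), 0 for the difference between the light effects (5.95%) and 1 for any difference among the conditions (6.8%). All 7 in the pairwise comparisons were higher in the later condition. The comparisons with 0 ZT dark share its 3 arrays. The 4 were 18.2% of the 22, above the share of the array, and the 2 in 6 ZT dark were 9.09%, close to it.

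That count of 4 rested on single arrays. It was 1 without 0 ZT dark replica 3, 2 without 6 ZT light replica 3 and 8 without 6 ZT light replica 1, and 1 when the replica numbers were not used as a block. With arrays weighted by their quality, the adjusted p fell below 0.05 for 3 of the 22 probe sets in 6 ZT light against 0 ZT dark (*Ncor1* 1398976_at, *Thrb* 1378457_at and *Thrb* 1387983_at) and for 1 in 6 ZT light against 6 ZT dark (*Thrb* 1378457_at). That fit gave 6 ZT light replica 3 a weight of 7.45, against 0.488 and 0.464 for replicas 1 and 2 of the same condition. It called 676 and 2311 probe sets over the whole array in these comparisons.

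By the ratio rule of the study, above 1.6 or below 0.7 in all 3 replicas against the 0 ZT dark array of the same number, 0 of the 22 passed in 3 ZT light, 6 ZT light, 3 ZT dark and 6 ZT dark, where 0.132%, 0.142%, 0.0161% and 0.351% of all probe sets did. Over the whole array 18 probe sets lay above 1.6 in 3 ZT light and 22 in 6 ZT light, fewer than the up-regulated genes that the study counts. Below 0.7 lay 23 and 22, equal to its counts of down-regulated genes. With a limit of 1.5 in place of 1.6, 30 and 49 lay above, among them 0 of the probe sets described here. For the probe sets described here, single ratios to 0 ZT dark ran from 0.649 to 1.56 in 3 ZT light and from 0.664 to 2.13 in 6 ZT light. The 95% intervals of the fold changes rest on the same spread as the p-values and were not adjusted for the number of tests. Since that spread may be technical, they do not bound differences among animals. All 22 lay within 1 log2 unit of no change in both light comparisons of the same hour, and 18 of 22 at 3 ZT and 16 of 22 at 6 ZT lay within 0.5. Against 0 ZT dark, 15 of 22 intervals at 3 ZT light and 13 of 22 at 6 ZT light lay within 0.5.

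**Figure D1:**
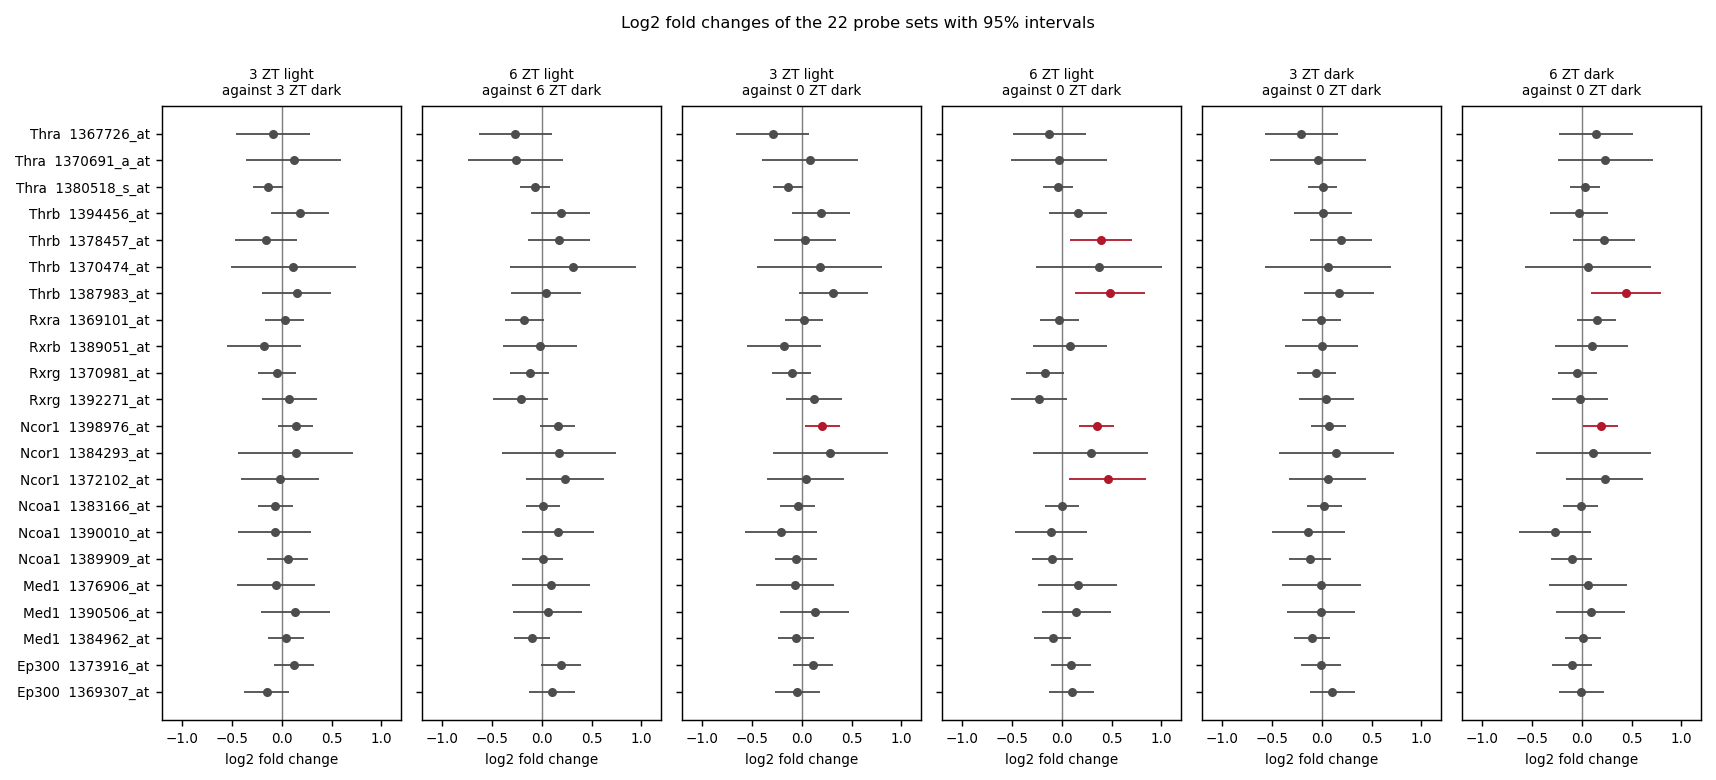
Fitted log2 fold changes (points) with 95% intervals (lines) of the 22 probe sets in the 6 comparisons, from limma on all 15 arrays. Red marks an unadjusted p under 0.05. These are 1 probe set in 3 ZT light against 0 ZT dark, 4 in 6 ZT light against 0 ZT dark and 2 in 6 ZT dark against 0 ZT dark, and none has an adjusted p under 0.05.

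*Thra* encodes TRα, the receptor of most tissues, and by splicing also a variant that does not bind T3. In GRCr8, the rat assembly of the RefSeq gene table, it lies on chromosome 10 (plus strand) and overlaps *Nr1d1*, a clock gene, and *Med24* on the other strand in the gene table. The tables used here do not tie the probe sets to variants. Probe set 1367726_at stood at 10.77, 11.11 and 11.36 in the 3 arrays of 3 ZT light and 11.01, 11.42 and 11.30 in those of 6 ZT light. In darkness 1367726_at held 10.92, 11.52 and 11.67 at 0 ZT, 11.04, 11.29 and 11.16 at 3 ZT and 11.09, 12.09 and 11.36 at 6 ZT. The 6 ZT dark value of replica 2 was the highest of the 15, and the conditions overlapped. This probe set was lower in 6 ZT light compared with 6 ZT dark in all 3 replicas, with ratios of 0.949, 0.63 and 0.963, and the log2 fold change in limma was −0.27 ± 0.17 (SE), adjusted p = 0.654. The other *Thra* probe sets were not lower in all 3, with ratios of 0.905, 0.593 and 1.08 for 1370691_a_at and 1, 0.873 and 1 for 1380518_s_at. In 3 ZT light compared with 0 ZT dark 1367726_at was lower in all 3 replicas (ratios of 0.898, 0.752 and 0.806, log2 fold change −0.29 ± 0.17 (SE), adjusted p = 0.693 in limma). For 6 ZT light against 0 ZT dark it gave −0.12 ± 0.17 (SE), adjusted p = 0.946 in limma.

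Probe set 1370691_a_at of *Thra* averaged 9.16 ± 0.46 in 3 ZT light, 9.05 ± 0.51 in 6 ZT light, 9.08 ± 0.35 in 0 ZT dark, 9.04 ± 0.25 in 3 ZT dark and 9.31 ± 0.56 in 6 ZT dark (SD, n = 3 each). Its spread lay mostly between replica numbers, with every replica 3 array above every replica 1 array. Probe set 1380518_s_at averaged 3.92 ± 0.26 in 3 ZT light, 4.02 ± 0.21 in 6 ZT light, 4.06 ± 0.24 in 0 ZT dark, 4.06 ± 0.17 in 3 ZT dark and 4.09 ± 0.26 in 6 ZT dark (SD, n = 3 each), below the median of all probe sets. It had the lowest p of the gene in both 3 ZT light comparisons, with a log2 fold change against 3 ZT dark of −0.14 ± 0.068 (SE), adjusted p = 0.895, and against 0 ZT dark of −0.14 ± 0.068 (SE), adjusted p = 0.666 in limma.

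*Thrb* encodes TRβ, whose isoforms TRβ1 and TRβ2 start from separate promoters. It lies on chromosome 15 (minus strand), and 4 probe sets measured it, which the tables used here do not assign to isoforms. The RefSeq promoter table of GRCr8, which takes 250 bases before and 50 after a start site, holds windows for 8 of the 9 genes. The core motif of thyroid hormone response elements was searched in them on both strands in its forms AGGTCA and GGGTCA, which cannot match the same bases. AGGTCA was in none of the 9 windows of the 8 genes (*Thra* has 2), against 16.2% of all 33469 windows. GGGTCA was in those of *Thrb* and *Ncor1*, against 13.8% of all windows, and both are shown for that reason. Whether the match goes with the values of these genes was not tested. Repeats of AGGTCA in the same direction, 1 to 6 bases apart, were in none of these 9 windows and in at most 0.0538% of all windows. A match of letters is no evidence of binding. For *Thrb* there is 1 window, whose isoform is not given, so a separate start of the other isoform was not searched. The windows of *Thrb*, *Ncor1* and *Ncoa1* lie inside the span of the gene, so starts further upstream were not searched for them. In capitals is the GGGTCA match, 178 bases before the start in *Thrb* (chr15:10461397-10461696, minus strand) and 220 bases before it in *Ncor1* (chr10:47640301-47640600, minus strand), each read 5′ to 3′ on the strand of the gene.
*Thrb* promoter: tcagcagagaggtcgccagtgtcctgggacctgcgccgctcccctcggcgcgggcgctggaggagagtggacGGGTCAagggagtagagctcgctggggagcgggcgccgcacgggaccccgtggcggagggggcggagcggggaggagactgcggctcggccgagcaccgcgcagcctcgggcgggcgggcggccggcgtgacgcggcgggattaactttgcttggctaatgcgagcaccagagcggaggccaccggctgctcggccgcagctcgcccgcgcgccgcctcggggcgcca
*Ncor1* promoter: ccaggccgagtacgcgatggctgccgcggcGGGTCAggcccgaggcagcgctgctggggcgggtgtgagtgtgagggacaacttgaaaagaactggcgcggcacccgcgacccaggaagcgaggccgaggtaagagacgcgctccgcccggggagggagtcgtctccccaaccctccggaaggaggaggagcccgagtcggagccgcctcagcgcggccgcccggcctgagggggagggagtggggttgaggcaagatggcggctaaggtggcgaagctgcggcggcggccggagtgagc

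The 4 *Thrb* probe sets all averaged higher in 6 ZT light compared with 0 ZT dark, with log2 fold changes from 0.16 to 0.49 on limma's fit, none past the threshold. The mean signal of probe set 1387983_at was 6.14, below the median of all probe sets. It stood at 5.59, 5.76 and 7.18 in the 3 arrays of 3 ZT light and 5.66, 5.76 and 7.63 in those of 6 ZT light. In darkness 1387983_at held 5.48, 5.56 and 6.55 at 0 ZT, 5.56, 5.64 and 6.90 at 3 ZT and 5.58, 5.84 and 7.49 at 6 ZT. Within each replica number both 6 ZT values lay above the 0 ZT dark value, and replica 3 moved most, with ratios of 6 ZT light to 0 ZT dark of 1.13, 1.15 and 2.11 and of 6 ZT dark to 0 ZT dark of 1.07, 1.22 and 1.92. The log2 fold change was 0.49 ± 0.16 (SE), adjusted p = 0.614 in 6 ZT light (unadjusted p = 0.0111), and 0.44 ± 0.16 (SE), adjusted p = 0.524 in 6 ZT dark (unadjusted p = 0.0178) in limma. Between 6 ZT light and 6 ZT dark it differed by 0.042 (95% interval −0.31 to 0.39). In 3 ZT light against 0 ZT dark it had the lowest p of the gene, at 0.32 ± 0.16 (SE), adjusted p = 0.666 in limma.

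Probe set 1378457_at stood at 10.68, 10.20 and 10.76 in the 3 arrays of 3 ZT light and 10.67, 10.85 and 11.21 in those of 6 ZT light. In darkness 1378457_at held 10.39, 10.58 and 10.59 at 0 ZT, 10.46, 10.70 and 10.97 at 3 ZT and 10.50, 10.85 and 10.86 at 6 ZT. All 3 replicas were higher in 6 ZT light compared with 0 ZT dark (ratios of 1.21, 1.21 and 1.54) and the groups did not overlap. The log2 fold change was 0.39 ± 0.14 (SE), adjusted p = 0.691 in limma (unadjusted p = 0.0186). Against 6 ZT dark it was 0.17 ± 0.14 (SE), adjusted p = 0.719 in limma, with ratios of 1.12, 1 and 1.28. In 3 ZT light replica 2, one of the arrays with a large *Actb* difference, this probe set was at its lowest of all 15 arrays.

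The remaining *Thrb* probe sets went in opposite directions in that array. Probe set 1394456_at stood at 12.88, 13.31 and 12.94 in the 3 arrays of 3 ZT light and 12.77, 13.07 and 13.19 in those of 6 ZT light. In darkness 1394456_at held 12.90, 12.99 and 12.66 at 0 ZT, 12.54, 12.98 and 13.06 at 3 ZT and 12.62, 12.86 and 12.98 at 6 ZT, and its value in 3 ZT light replica 2 was its highest. It had the lowest p of the gene in both comparisons with darkness of the same hour, at 0.18 ± 0.13 (SE), adjusted p = 0.895 at 3 ZT, and 0.19 ± 0.13 (SE), adjusted p = 0.686 at 6 ZT in limma. Probe set 1370474_at stood at 8.98, 7.98 and 9.22 in the 3 arrays of 3 ZT light and 8.26, 8.70 and 9.80 in those of 6 ZT light. In darkness 1370474_at held 8.85, 8.09 and 8.71 at 0 ZT, 8.48, 8.26 and 9.09 at 3 ZT and 8.11, 8.37 and 9.35 at 6 ZT. Its value in 3 ZT light replica 2 was its lowest. Its fitted change in 6 ZT light against 0 ZT dark was 0.37 ± 0.28 (SE), adjusted p = 0.904 in limma. The interval was the widest of the 22, from −0.26 to 1.00.

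The retinoid X receptors are the shared partners of the thyroid hormone, retinoic acid, vitamin D and peroxisome proliferator-activated receptors. *Rxra* (chromosome 3, plus strand), probe set 1369101_at, stood at 7.98, 8.44 and 8.58 in the 3 arrays of 3 ZT light and 8.01, 8.24 and 8.60 in those of 6 ZT light. In darkness 1369101_at held 8.00, 8.48 and 8.45 at 0 ZT, 7.91, 8.48 and 8.53 at 3 ZT and 8.02, 8.70 and 8.66 at 6 ZT. Replica 1 was the lowest in every condition, and within a replica number the conditions lay close together. *Rxra* was lower in 6 ZT light compared with 6 ZT dark in all 3 replicas (ratios of 0.993, 0.727 and 0.962). The log2 fold change in limma was −0.18 ± 0.087 (SE), adjusted p = 0.601. In the other light comparisons it was 0.027 ± 0.087 (SE), adjusted p = 0.972 at 3 ZT against darkness of that hour, 0.023 ± 0.087 (SE), adjusted p = 0.958 in 3 ZT light against 0 ZT dark, and −0.026 ± 0.087 (SE), adjusted p = 0.98 in 6 ZT light against 0 ZT dark in limma.

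*Rxrb* (chromosome 20, minus strand) overlaps *Slc39a7* on the other strand. Probe set 1389051_at stood at 9.51, 9.25 and 9.70 in the 3 arrays of 3 ZT light and 9.75, 9.85 and 9.64 in those of 6 ZT light. In darkness 1389051_at held 9.36, 9.75 and 9.89 at 0 ZT, 9.61, 9.65 and 9.74 at 3 ZT and 9.51, 10.14 and 9.64 at 6 ZT. In 3 ZT light replica 2 lay its lowest value and in 6 ZT dark replica 2 its highest. Log2 fold changes in limma were −0.18 ± 0.17 (SE), adjusted p = 0.899 for 3 ZT light against 3 ZT dark, −0.018 ± 0.17 (SE), adjusted p = 0.983 for 6 ZT light against 6 ZT dark, −0.18 ± 0.17 (SE), adjusted p = 0.774 for 3 ZT light against 0 ZT dark, and 0.08 ± 0.17 (SE), adjusted p = 0.967 for 6 ZT light against 0 ZT dark. Without 3 ZT light replica 2, the change of 3 ZT light against 0 ZT dark was 0.0086, so that its sign rested on that array.

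*Rxrg* (chromosome 13, plus strand) had 2 probe sets. Probe set 1370981_at stood at 9.00, 9.44 and 9.44 in the 3 arrays of 3 ZT light and 8.95, 9.44 and 9.30 in those of 6 ZT light. In darkness 1370981_at held 9.35, 9.44 and 9.40 at 0 ZT, 9.19, 9.44 and 9.40 at 3 ZT and 9.25, 9.48 and 9.33 at 6 ZT. Of the 5 arrays of replica 2, 4 held the same value of 9.44 exactly. It had the lowest p of the gene against 0 ZT dark, at −0.10 ± 0.087 (SE), adjusted p = 0.756 in 3 ZT light, and −0.17 ± 0.087 (SE), adjusted p = 0.845 in 6 ZT light in limma. Probe set 1392271_at stood at 6.76, 7.71 and 6.90 in the 3 arrays of 3 ZT light and 6.69, 6.90 and 6.72 in those of 6 ZT light. In darkness 1392271_at held 6.85, 7.26 and 6.88 at 0 ZT, 6.76, 7.26 and 7.11 at 3 ZT and 6.76, 7.26 and 6.92 at 6 ZT. It was at its highest in 3 ZT light replica 2 and was lower in 6 ZT light compared with 6 ZT dark in all 3 replicas, with ratios of 0.952, 0.779 and 0.867. Its log2 fold change against darkness was 0.076 ± 0.13 (SE), adjusted p = 0.945 at 3 ZT, and −0.21 ± 0.13 (SE), adjusted p = 0.641 at 6 ZT in limma.

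**Figure D2:**
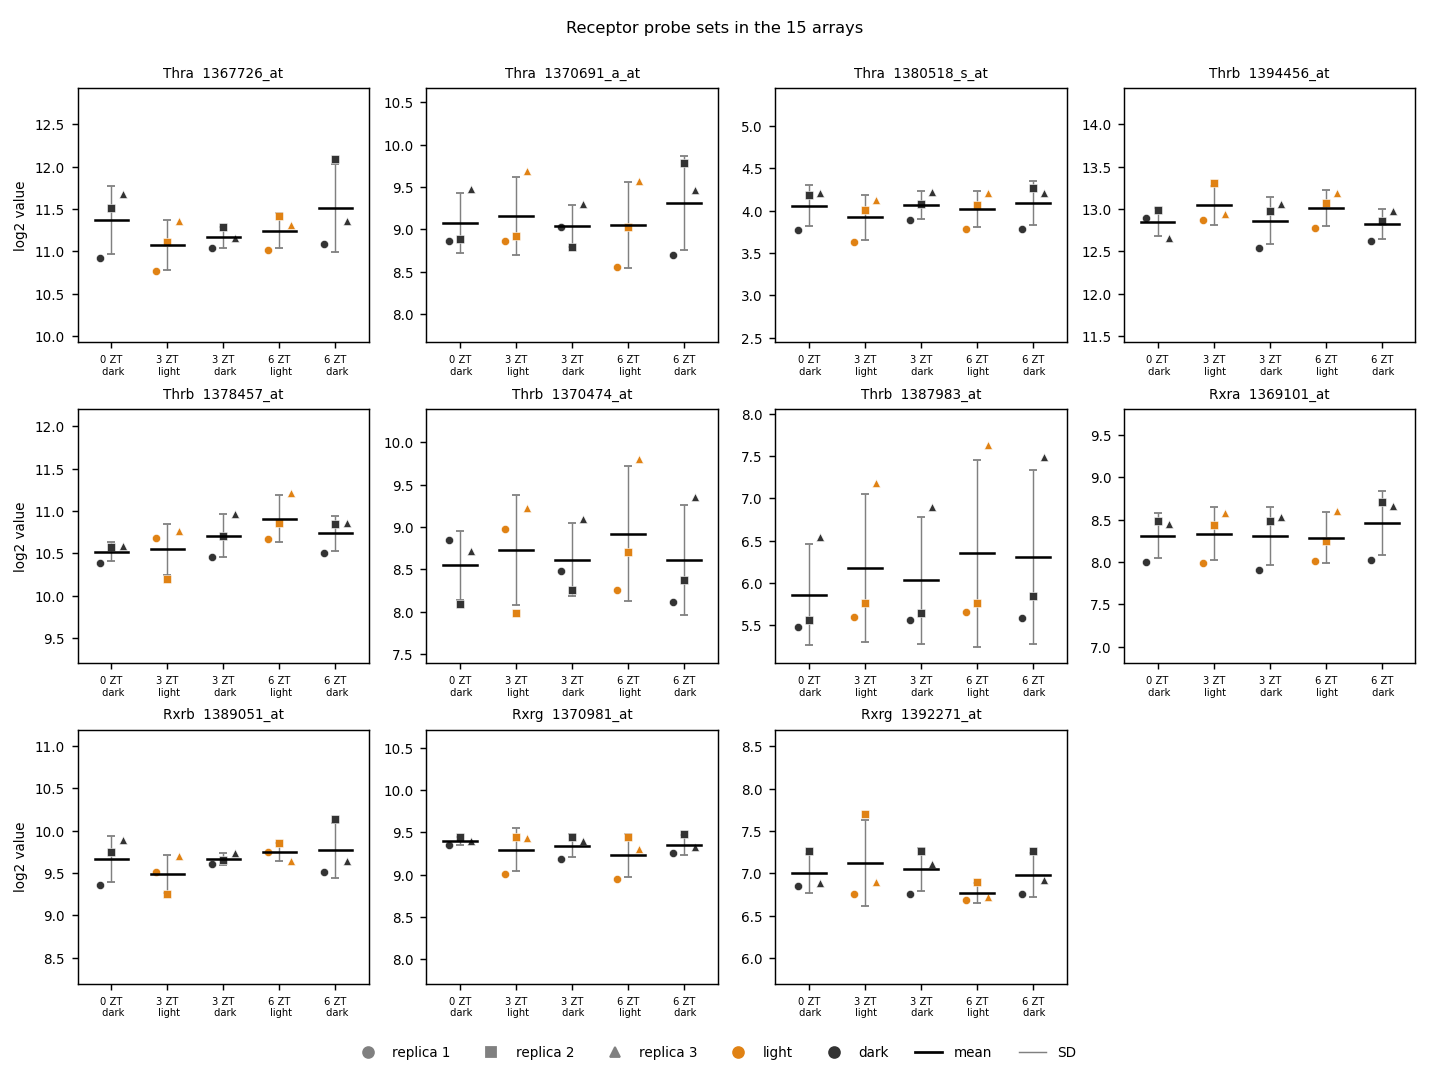
Log2 values of the 11 receptor probe sets in the 15 arrays by condition, with the mean (black line) and SD (grey bar) of the 3 replicas. Each panel spans 3 log2 units around its own centre, light is orange and darkness black, and marker shapes give the replica number. Replica 3 of *Thrb* 1387983_at stands apart from replicas 1 and 2 in every condition.

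*Ncor1*, which encodes the nuclear receptor corepressor 1, lies on chromosome 10 (minus strand) and overlaps *Pigl* on the other strand. Its 3 probe sets all averaged higher in both light conditions than in 0 ZT dark, with log2 fold changes of 0.35, 0.29 and 0.46 in 6 ZT light, none past the threshold. All 3 also averaged higher in 3 ZT dark and 6 ZT dark than in 0 ZT dark, with 0.19, 0.12 and 0.23 in 6 ZT dark. Probe set 1398976_at was the probe set nearest to a call among the 22. It stood at 12.28, 12.32 and 12.36 in the 3 arrays of 3 ZT light and 12.26, 12.54 and 12.59 in those of 6 ZT light. In darkness 1398976_at held 11.99, 12.22 and 12.13 at 0 ZT, 12.00, 12.22 and 12.32 at 3 ZT and 12.02, 12.44 and 12.45 at 6 ZT. All 6 light values lay above all 3 values of 0 ZT dark, and so did 3 ZT dark replica 3 and 6 ZT dark replicas 2 and 3.

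The log2 fold change of 1398976_at in limma was 0.35 ± 0.079 (SE), adjusted p = 0.365 in 6 ZT light against 0 ZT dark (unadjusted p = 0.00114). It was 0.21 ± 0.079 (SE), adjusted p = 0.625 in limma in 3 ZT light against 0 ZT dark (unadjusted p = 0.0257), and 0.19 ± 0.079 (SE), adjusted p = 0.552 in 6 ZT dark against 0 ZT dark (unadjusted p = 0.037). In linear terms the ratios of 6 ZT light to 0 ZT dark were 1.21, 1.25 and 1.38. Against darkness of the same hour 1398976_at was higher in light in all 3 replicas at both hours, with ratios of 1.21, 1.07 and 1.02 at 3 ZT and 1.18, 1.07 and 1.11 at 6 ZT. Those differences were 0.14 ± 0.079 (SE), adjusted p = 0.895 at 3 ZT, and 0.16 ± 0.079 (SE), adjusted p = 0.595 at 6 ZT in limma. Over all 5 conditions it was the single probe set of the 22 with an unadjusted p under 0.05 (F = 5.85, adjusted p = 0.687 in limma). Once replica means were removed, the order of its levels was 6 ZT light, 3 ZT light, 6 ZT dark, 3 ZT dark and 0 ZT dark from high to low, and 3 ZT light and 6 ZT dark did not differ by more than their spread.

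Probe set 1372102_at stood at 10.16, 9.47 and 10.63 in the 3 arrays of 3 ZT light and 10.09, 10.54 and 10.89 in those of 6 ZT light. In darkness 1372102_at held 9.70, 10.03 and 10.41 at 0 ZT, 9.85, 10.03 and 10.44 at 3 ZT and 9.95, 10.14 and 10.75 at 6 ZT. It was higher in 6 ZT light compared with 0 ZT dark in all 3 replicas (ratios of 1.31, 1.43 and 1.39, log2 fold change 0.46 ± 0.18 (SE), adjusted p = 0.742 in limma), although the groups overlapped. In 6 ZT dark it was also higher than in 0 ZT dark in all 3 replicas (ratios of 1.19, 1.08 and 1.26). In 3 ZT light replica 2 it was at its lowest. Probe set 1384293_at stood at 10.60, 10.25 and 10.96 in the 3 arrays of 3 ZT light and 9.78, 10.45 and 11.59 in those of 6 ZT light. In darkness 1384293_at held 10.26, 9.98 and 10.70 at 0 ZT, 10.40, 10.29 and 10.70 at 3 ZT and 9.82, 10.48 and 11.00 at 6 ZT. Its replicas disagreed in 6 ZT light, where ratios to 0 ZT dark were 0.715, 1.38 and 1.85, and its value in 6 ZT light replica 3 was its highest.

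**Figure D3:**
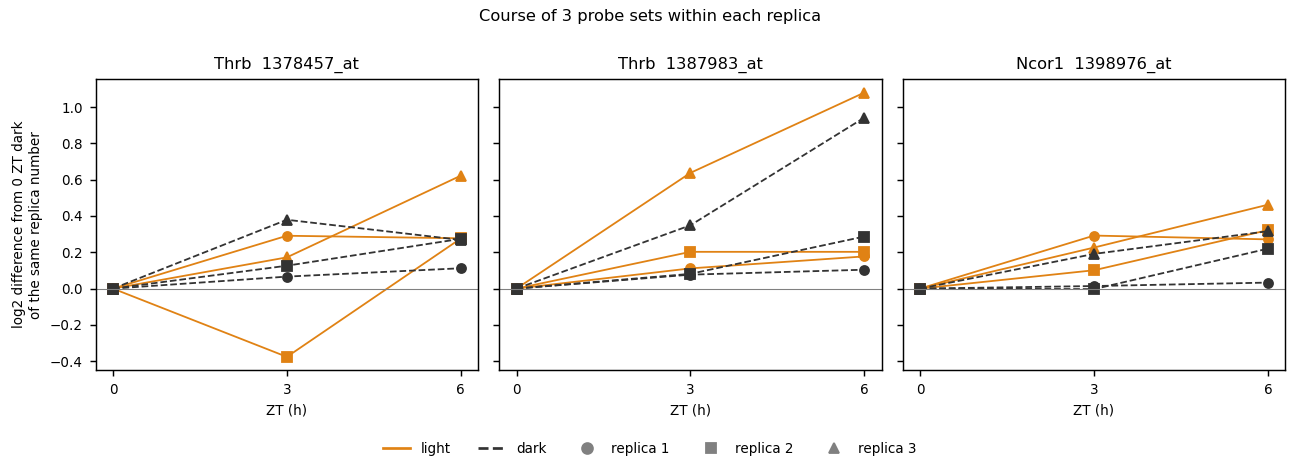
Log2 difference from the 0 ZT dark array of the same replica number at 0, 3 and 6 ZT, in light (orange, solid) and darkness (black, dashed), for the 3 probe sets that passed an adjusted p of 0.05 only with array quality weights. In *Thrb* 1387983_at replica 3 lies above replicas 1 and 2 in light and in darkness, and in *Thrb* 1378457_at 3 ZT light replica 2 is the single point below 0.

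In the coactivator genes no probe set reached an unadjusted p of 0.05. *Ncoa1* (chromosome 6, minus strand), probe set 1383166_at, stood at 13.22, 13.36 and 13.09 in the 3 arrays of 3 ZT light and 13.21, 13.28 and 13.31 in those of 6 ZT light. In darkness 1383166_at held 13.21, 13.35 and 13.23 at 0 ZT, 13.18, 13.28 and 13.40 at 3 ZT and 13.21, 13.26 and 13.29 at 6 ZT. The change in 6 ZT light against 0 ZT dark was 0.00033 with a 95% interval from −0.17 to 0.17. It had the lowest p of the gene at 3 ZT against darkness of that hour, −0.066 ± 0.079 (SE), adjusted p = 0.911 in limma. Probe set 1390010_at stood at 11.72, 12.37 and 11.85 in the 3 arrays of 3 ZT light and 11.91, 12.13 and 12.21 in those of 6 ZT light. In darkness 1390010_at held 12.34, 12.15 and 12.07 at 0 ZT, 11.98, 11.89 and 12.29 at 3 ZT and 11.80, 11.87 and 12.07 at 6 ZT. It had the lowest p in 6 ZT light against 6 ZT dark, 0.16 ± 0.16 (SE), adjusted p = 0.77, and in 3 ZT light against 0 ZT dark, −0.21 ± 0.16 (SE), adjusted p = 0.746 in limma. Probe set 1389909_at averaged 6.12 ± 0.44 in 3 ZT light, 6.08 ± 0.40 in 6 ZT light, 6.18 ± 0.33 in 0 ZT dark, 6.06 ± 0.46 in 3 ZT dark and 6.08 ± 0.54 in 6 ZT dark (SD, n = 3 each), with −0.095 ± 0.094 (SE), adjusted p = 0.921 in 6 ZT light against 0 ZT dark in limma.

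*Med1* (chromosome 10) had 3 probe sets. Probe set 1376906_at stood at 10.58, 10.73 and 10.84 in the 3 arrays of 3 ZT light and 10.40, 11.16 and 11.26 in those of 6 ZT light. In darkness 1376906_at held 10.86, 10.98 and 10.51 at 0 ZT, 10.58, 10.91 and 10.85 at 3 ZT and 10.58, 10.87 and 11.10 at 6 ZT. In 6 ZT light its replicas went apart, with ratios to 0 ZT dark of 0.725, 1.13 and 1.69. Probe set 1390506_at stood at 9.35, 9.68 and 9.82 in the 3 arrays of 3 ZT light and 9.03, 9.87 and 10.01 in those of 6 ZT light. In darkness 1390506_at held 9.53, 9.36 and 9.58 at 0 ZT, 9.32, 9.48 and 9.64 at 3 ZT and 9.32, 9.61 and 9.80 at 6 ZT. Ratios of 6 ZT light to 0 ZT dark were 0.704, 1.43 and 1.35, so that replica 1 was lower and replicas 2 and 3 were higher in light. It had the lowest p of the gene in the 3 ZT light comparisons, at 0.14 ± 0.16 (SE), adjusted p = 0.91 against 3 ZT dark, and 0.13 ± 0.16 (SE), adjusted p = 0.831 against 0 ZT dark in limma. Probe set 1384962_at averaged 6.70 ± 0.27 in 3 ZT light, 6.66 ± 0.39 in 6 ZT light, 6.76 ± 0.24 in 0 ZT dark, 6.66 ± 0.21 in 3 ZT dark and 6.76 ± 0.33 in 6 ZT dark (SD, n = 3 each), and 4 of its replica 1 arrays held the same value exactly. It gave −0.10 ± 0.082 (SE), adjusted p = 0.717 in 6 ZT light against 6 ZT dark, and −0.094 ± 0.082 (SE), adjusted p = 0.913 in 6 ZT light against 0 ZT dark in limma.

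*Ep300* (chromosome 7, plus strand) encodes the acetyltransferase p300, which the study lists among factors downstream of thyroid hormone. The study also names *Ep300* as up-regulated after both 3 and 6 hours of light. The legend of its gene lists, by contrast, places *Dio2* alone in both lists of genes raised in all 3 replicas. Its text adds that the expression of *Ep300* could not be verified. Here neither probe set of *Ep300* passed the ratio rule of the study in 3 ZT light or 6 ZT light. The study further reports spaced copies of AGGTCA in an *Ep300* promoter sequence from another source, which may differ from the window searched here. Probe set 1373916_at stood at 11.84, 12.13 and 11.82 in the 3 arrays of 3 ZT light and 11.71, 11.99 and 12.05 in those of 6 ZT light. In darkness 1373916_at held 11.66, 11.93 and 11.88 at 0 ZT, 11.57, 11.93 and 11.94 at 3 ZT and 11.47, 11.77 and 11.94 at 6 ZT. It was higher in 6 ZT light compared with 6 ZT dark in all 3 replicas, with ratios of 1.18, 1.17 and 1.08, and had the lowest p of the 22 in that comparison, at 0.19 ± 0.091 (SE), adjusted p = 0.59 in limma (unadjusted p = 0.0612). Against 0 ZT dark the change was 0.11 ± 0.091 (SE), adjusted p = 0.754 in 3 ZT light, and 0.095 ± 0.091 (SE), adjusted p = 0.92 in 6 ZT light in limma. Probe set 1369307_at averaged 6.57 ± 0.36 in 3 ZT light, 6.72 ± 0.33 in 6 ZT light, 6.62 ± 0.36 in 0 ZT dark, 6.72 ± 0.21 in 3 ZT dark and 6.61 ± 0.37 in 6 ZT dark (SD, n = 3 each), below the median of all probe sets, with −0.15 ± 0.10 (SE), adjusted p = 0.895 in 3 ZT light against 3 ZT dark in limma. The probe sets of *Ep300* had opposite signs at 3 ZT and the same sign at 6 ZT against darkness of the same hour.

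**Figure D4:**
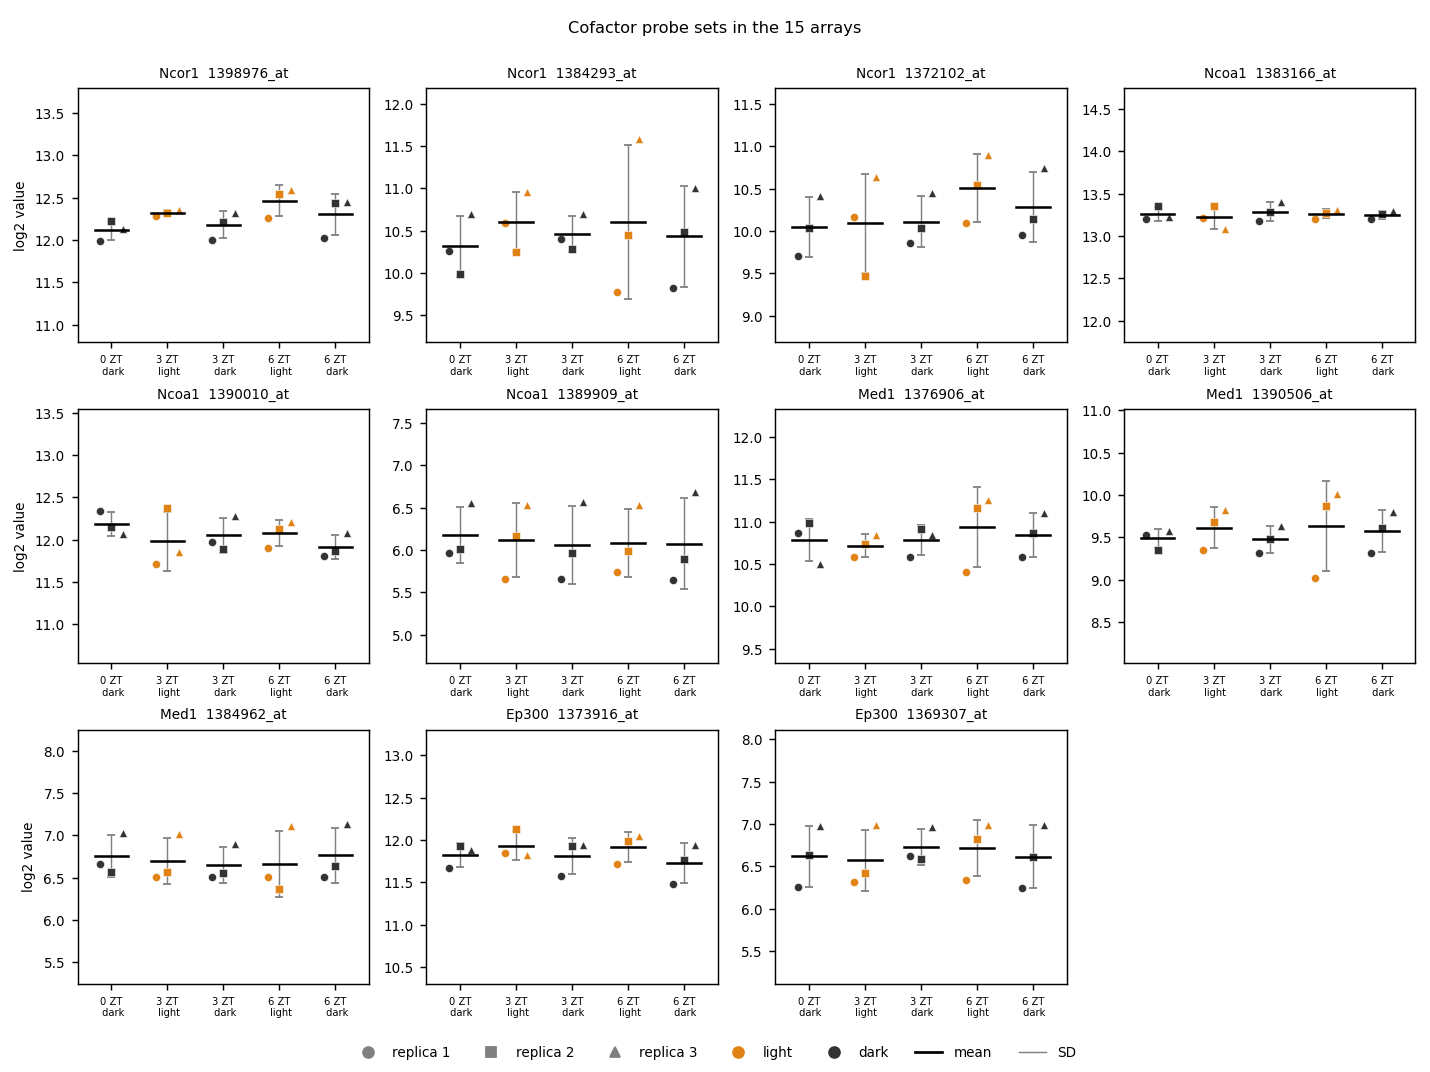
Log2 values of the 11 cofactor probe sets in the 15 arrays by condition, drawn as for the receptors. In *Ncor1* 1398976_at all light values lie above those of 0 ZT dark, as do 3 ZT dark replica 3 and 6 ZT dark replicas 2 and 3. In *Ncor1* 1384293_at and *Med1* 1376906_at the 3 replicas of 6 ZT light lie far apart.

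Of all 22 probe sets, 3 were higher and 2 lower in 3 ZT light compared with 3 ZT dark in all 3 replicas, where 7.71% of all probe sets were higher and 9.43% lower. In 6 ZT light against 6 ZT dark 7 were higher and 4 lower (17.2% and 13.5% of all). In 3 ZT light against 0 ZT dark 3 were higher and 2 lower (11.8% and 11.0%), and in 6 ZT light against 0 ZT dark 6 were higher and 2 lower (12.3% and 9.38%). The median log2 fold change of the 22 was 0.035, 0.051, 0.026 and 0.087 in these comparisons, beside medians over all probe sets of 0.0003, −0.0067, 0.0036 and −0.007. Highest means fell in 6 ZT light for 8 probe sets, in 6 ZT dark for 6, in 3 ZT light for 3, in 0 ZT dark for 3 and in 3 ZT dark for 2. After removal of replica means, neighbours in the order of the 5 conditions differed by more than the larger of their SDs in 13 of 88 pairs. Neither this count nor that of the highest means was made over all probe sets, so neither can be called many or few.

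The genes whose values over the 15 arrays were most like those of each receptor, after replica means were removed, are given as a description. They share arrays and RNA samples with the receptors. For *Thra* 1367726_at they were *Ralb* (Pearson r = 0.96), *Fastk* (0.95) and *Hmx1* (0.95) among 9335 genes. For *Thrb* 1394456_at they were *Upf2*, *Smurf2* and *Zbtb34* (each 0.93), and for *Rxrb* *Abtb1* (0.98), *Ppp1r37* (0.97) and *Rbck1* (0.97). For *Rxrg* 1370981_at they were *Rbm11* (0.93), *Brinp2* (0.93) and *Lipa* (0.92). For *Rxra* they were *Cyth1* (0.86), *Hcls1* (0.85) and *Six5* (0.85), where Spearman's rho was 0.56, 0.62 and 0.46.

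Around the receptors, 8 lists of genes of the same pathway were counted, each gene by its brightest probe set. Of 70 genes 63 were measured, and 0 passed an adjusted p of 0.05 in any comparison. At an unadjusted p under 0.05, 2 were higher and 7 lower in 3 ZT light compared with 3 ZT dark, and 11 higher and 2 lower in 6 ZT light compared with 6 ZT dark. Against 0 ZT dark, 5 were higher and 7 lower in 3 ZT light, and 8 higher and 2 lower in 6 ZT light. These are 14.3%, 20.6%, 19.0% and 15.9% of the 63, where 4.59%, 8.53%, 7.68% and 6.18% of all probe sets had such a p. The lists were chosen with earlier results of these data known. They hold genes that the study reports as raised by light, such as *Dio2*, *Ccng1* and *Cpt1a*. The shares of the array also count dim probe sets and those without a symbol, so no excess can be read from this comparison. In darkness against 0 ZT dark 2 were higher and 0 lower at 3 ZT, and 4 higher and 4 lower at 6 ZT. Of all probe sets 1.25% and 8.73% had such a p in these comparisons.

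Among other coactivators, 4 of 12 were higher and 0 lower in 6 ZT light compared with 6 ZT dark at an unadjusted p under 0.05. In that comparison 8.53% of all probe sets had such a p in either direction, and no excess can be read from a list so chosen. Named by their lowest p over the light comparisons, *Med12* and *Med23*, both subunits of Mediator, and *Crebbp*, the paralogue of *Ep300*, had log2 fold changes of 0.44 ± 0.13 (SE, adjusted p = 0.508), 0.24 ± 0.082 (SE, adjusted p = 0.524) and 0.19 ± 0.085 (SE, adjusted p = 0.584) in limma. In the list of corepressor partners, 1 of 5 had an unadjusted p under 0.05 in a light comparison, *Tbl1xr1*, which encodes a subunit of the NCOR1 complex, at −0.29 ± 0.072 (SE, adjusted p = 0.895) in 3 ZT light against 3 ZT dark in limma. In that comparison 4.59% of all probe sets had such a p. *Hdac3* and *Sin3a*, the deacetylase of that complex and a scaffold of a related one, gave −0.24 and −0.043 there. The ratios of *Hdac3* were 0.986, 0.614 and 1, and the low one was in 3 ZT light replica 2.

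Other receptors that pair with the retinoid X receptors had an unadjusted p under 0.05 in 3 of 11 cases for 3 ZT light against 0 ZT dark. Of all probe sets 7.68% had such a p there. *Nr4a1*, an orphan receptor induced early by many stimuli, gave −0.64 ± 0.14 (SE, adjusted p = 0.364), *Rarb* gave −0.28 ± 0.073 (SE, adjusted p = 0.456) and *Ppara* gave 0.23 ± 0.086 (SE, adjusted p = 0.625) in limma. In darkness *Ppara* was also higher than at 0 ZT, at 0.20 ± 0.086 (SE, adjusted p = 1) in 3 ZT dark and 0.29 ± 0.086 (SE, adjusted p = 0.495) in 6 ZT dark in limma, and 3 ZT light against 3 ZT dark gave 0.028. In 3 ZT light against 3 ZT dark *Nr4a1* and *Rarb* gave −0.50 ± 0.14 and −0.20 ± 0.073 (SE, adjusted p = 0.895 for both) in limma. Of 10 genes listed as known or proposed targets of thyroid hormone, 4 differed between 3 ZT light and 0 ZT dark at an unadjusted p under 0.05. Of these 4, 3 were higher in light. The share of all probe sets with such a p was 7.68%. The study proposes *Ccng1* and *Atp1b2* of this list as targets from a search of promoter sequences, and calls *Cpt1a* a known one. *Ccng1*, which encodes cyclin G1, gave 0.55 ± 0.11 (SE, adjusted p = 0.296) and *Cpt1a*, which encodes the carnitine palmitoyltransferase of fatty acid oxidation, 0.53 ± 0.12 (SE, adjusted p = 0.344), while *Thrsp* gave −0.57 ± 0.17 (SE, adjusted p = 0.548) in limma. In 6 ZT light against 0 ZT dark *Ccng1* and *Cpt1a* gave 0.86 ± 0.11 (SE, adjusted p = 0.102) and 0.77 ± 0.12 (SE, adjusted p = 0.156) in limma. In 6 ZT dark against 0 ZT dark they gave 0.54 ± 0.11 (SE, adjusted p = 0.457) and 0.32 ± 0.12 (SE, adjusted p = 0.527) in limma, so that both were also higher in darkness at the later hour. Between 6 ZT light and 6 ZT dark the differences were 0.33 ± 0.11 (SE, adjusted p = 0.518) and 0.45 ± 0.12 (SE, adjusted p = 0.508) in limma.

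Cone genes, some of them known targets of TRβ2, were measured for 9 of 11 symbols. Of the 9, 3 were lower in 3 ZT light compared with 0 ZT dark at an unadjusted p under 0.05 (7.68% of all probe sets in either direction). They were *Gnb3* and *Gngt2*, the cone transducin β and γ subunits, and *Arr3*, cone arrestin, with log2 fold changes of −0.45 ± 0.096 (SE, adjusted p = 0.343), −0.41 ± 0.16 (SE, adjusted p = 0.633) and −0.41 ± 0.15 (SE, adjusted p = 0.601) in limma. In 3 ZT light against 3 ZT dark they gave −0.37 ± 0.096, −0.26 ± 0.16 and −0.25 ± 0.15 (SE, adjusted p = 0.895 for each) in limma. In 6 ZT dark against 0 ZT dark, without light, 3 of the 9 were also lower at an unadjusted p under 0.05 (8.73% of all probe sets in either direction). Among them were *Arr3* at −0.55 ± 0.15 (SE, adjusted p = 0.495) and *Gngt2* at −0.50 ± 0.16 (SE, adjusted p = 0.509) in limma, while *Gnb3* gave −0.052. *Arr3* was higher in 6 ZT light compared with 6 ZT dark, at 0.43 ± 0.15 (SE, adjusted p = 0.529) in limma. Of 6 photoreceptor fate factors measured, *Rorb*, a nuclear receptor of photoreceptor precursors, had the lowest p at −0.83 ± 0.18 (SE, adjusted p = 0.344) in 3 ZT light against 0 ZT dark in limma. *Crx* gave −0.40, with ratios of 1.51, 0.286 and 1, so that its sign came from 3 ZT light replica 2, the array with the largest *Actb* difference. *Nr2f2* gave 0.13, with ratios of 1, 1.66 and 0.789. In 3 ZT light against 3 ZT dark *Rorb* gave −0.83 ± 0.18 (SE, adjusted p = 0.895) in limma, *Crx* −0.50 and *Nr2f2* 0.20. *Slc16a10* and *Slco1c1*, transporters of thyroid hormone, gave 0.92 ± 0.12 (SE, adjusted p = 0.118) and 1.07 ± 0.21 (SE, adjusted p = 0.44) in 6 ZT light against 6 ZT dark in limma. *Dio2*, which makes T3, gave 1.33 ± 0.38 (SE, adjusted p = 0.895) in 3 ZT light against 3 ZT dark in limma.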

How the data were processed

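The authors summarised scanned Affymetrix RAT230_2 images with the Robust Multi-array Average and deposited log2 values for 31099 probe sets in 15 arrays, which were used as deposited. The software used for it and whether replicas were normalized as separate sets are not given in the sources used here. The labels give 6 µg of RNA per array, and the methods give 10 µg. Gene symbols came from the platform annotation, and 20832 probe sets carry 1 symbol. The members and gene lists were chosen with earlier results of these data known.

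Every test is a contrast of 1 linear model (limma 3.58.1, R 4.3.3) of the 15 arrays, whose factors were the condition and the replica number. The Benjamini-Hochberg method adjusted p over 31042 probe sets, controls left out, and calls were made at 0.05. The model was tested on simulated data. The replica numbers come from the sample titles. In 30 of 30 checks an array's deviations from the mean of its condition were closest to those of the same number in another condition (r from 0.241 to 0.797), so the numbers were taken as pairs, although shared processing could give the same closeness. Intervals cover 95%. Full statistics are given, by a fixed rule, for each gene's probe set with the lowest p in each light comparison and for all probe sets with an unadjusted p under 0.05, and up to 3 genes are named for each pathway list. Likeness is Pearson's r over 15 arrays to the brightest probe set of each other gene with a mean above the median. Marker levels are means over the brightest probe sets of a list. Chromosomes, strands, neighbouring genes and promoters came from RefSeq tables of GRCr8. Only promoter windows are given with coordinates, and no probe was placed on the genome.

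The alternatives were no replicate block, array quality weights (statmod 1.5.0), a filter on dim probe sets, renormalization by quantiles or by cyclic loess, fits of only the conditions compared, the *Actb* difference as a covariate, leaving out both arrays where it was largest, each array left out in turn, ratios to the mean of the controls, a ratio of 1.5, and every probe set of listed genes. Figures were drawn with matplotlib 3.10.9. Some genes of the pathway lists are not analysed here.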

Additional observations from a re-analysis of the deposited data

How the results depend on the processing

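The count of called probe sets among the 22 stayed at 0 in all 8 limma comparisons and by the ratio rule in all 4 conditions under each alternative run, except that array quality weights called 3 in 6 ZT light against 0 ZT dark (*Ncor1* 1398976_at, *Thrb* 1378457_at and *Thrb* 1387983_at, with adjusted p-values from limma of 0.0351, 0.0414 and 0.0455) and 1 in 6 ZT light against 6 ZT dark (*Thrb* 1378457_at, 0.0467). Over all alternatives the adjusted p of *Ncor1* 1398976_at in 6 ZT light against 0 ZT dark ran from 0.0351 to 1 in limma, and its log2 fold change from 0.30 to 0.38. The fit of any difference was not run with only the conditions compared.

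Without the replicate block, 0 of the 22 were called in each comparison, and those with an unadjusted p below 0.05 numbered 1 in 6 ZT light against 0 ZT dark (limma, main value 4), while in 3 ZT light and 6 ZT dark against 0 ZT dark it was 0 and 0 (main values 1 and 2) and for any difference among the conditions 0 (main value 1). Over the whole array the single call for 3 ZT light against 3 ZT dark was lost.

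Leaving out single arrays, the change of *Rxrb* 1389051_at in 3 ZT light against 0 ZT dark ran from −0.30 to 0.0086 (main value −0.18), positive only without 3 ZT light replica 2. Over all alternatives the 22 held 0 to 2 probe sets at an unadjusted p under 0.05 for 3 ZT light against 3 ZT dark, 0 to 8 for 6 ZT light against 6 ZT dark, 0 to 4 for 3 ZT light against 0 ZT dark, 1 to 10 for 6 ZT light against 0 ZT dark, 0 to 4 for 6 ZT dark against 0 ZT dark and 0 to 7 for any difference, the upper end coming from array quality weights for 6 ZT light and for any difference. Over the whole array 0 to 676 probe sets were called for 6 ZT light against 0 ZT dark, 0 to 2311 for 6 ZT light against 6 ZT dark and 0 to 191 for any difference, and 38 for 6 ZT light against 0 ZT dark without 3 ZT light replica 2. Causes were not tested. With 3 replicas a condition, small changes could be missed, and no detection limit was measured. Of the 22 probe sets 7 had a mean below the median of all probe sets.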
